A study of Mus musculus with 9 samples.

Results

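The 10 genes described here encode the core and the scaffold of elastic fibres: Eln, Fbn1, Fbn2, Mfap2, Mfap4, Mfap5, Fbln1, Fbln2, Fbln5 and Emilin1. They were taken by gene symbol from the deposited mRNA table of 21873 genes, and each symbol matched 1 row. An elastic fibre is a core of cross-linked elastin laid down on a bundle of microfibrils, which are polymers of fibrillin decorated by microfibril-associated proteins. Fibulins and emilins sit where the core meets the microfibrils, and lysyl oxidases join the elastin chains. In the liver these fibres lie mainly in portal tracts and vessel walls, and they are also found in the septa of fibrotic tissue.

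Messenger RNA of whole liver was sequenced from 9 male C57BL/6 mice, 3 in each group, which were 8 weeks old at the start. The control group (NS) received saline. The TAA group received the hepatotoxin thioacetamide at 200 mg/kg by intraperitoneal injection every 3 days for 8 weeks, and livers were taken 72 h after the last injection. The recovery group (labelled Re) received the same course of TAA and was then kept for 8 weeks without it, so these mice were 8 weeks older at collection than the other groups, and age and recovery cannot be told apart. The comparisons ask which genes changed in the injured liver, and how far each had returned after TAA was stopped.

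Values are FPKM, fragment counts corrected for gene length and library depth by the authors, divided by 1 scale factor per library so that the typical gene is level between libraries. This is called scaled FPKM below, and because it is a level per length it can be set side by side between genes. A gene was called a differentially expressed gene (DEG) when limma gave an adjusted p under 0.05 and a change of at least 2-fold on the log2(scaled FPKM + 0.1) scale. Each p-value measures the spread between 3 mice a group.

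Library depth was estimated at 26.8 M to 40.6 M fragments. The summed level of 6 hepatocyte markers was 36645 to 41244 scaled FPKM in control mice, 21281 to 28107 in TAA mice and 45108 to 47832 in recovery mice. A few libraries held transcripts typical of other tissue. The sum over 9 skeletal muscle genes was 39.6 scaled FPKM in TAA mouse 3 and at most 0.0846 in every other library. Of the 5 adrenal cortex genes, Cyp11a1 was 0.618 in recovery mouse 3 and listed at 0 elsewhere, but Cyp21a1 was 3.07 to 5.99 in TAA mice, and the sum of the list was 0.406 to 0.997 in control, 3.38 to 6.37 in TAA and 0.527 to 3.61 in recovery mice. The sum of 5 adipocyte genes was 8.48 in control mouse 1 and at most 1.81 elsewhere, of which Cfd made up 8.41, while Plin1, Retn and Lep were listed at 0 in that mouse. Results are therefore also given below without single libraries where that changed a call.

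All 9 of the members that could be tested were DEGs higher in TAA mice than in control mice, and 17.0% of the 14094 tested genes were DEGs in that direction. The tenth member, Mfap5, was too low to test. Their log2 fold changes ran from 1.31 for Fbln5 to 4.75 for Fbn2, with a median of 2.45 against 0.02 over all tested genes. In whole tissue, more cells of a type and more RNA per cell cannot be told apart. None was a DEG lower in the TAA group, the class that held 8.02% of tested genes. In each of the 9 members the lowest TAA mouse was above the highest control mouse, a pattern seen in 32.6% of tested genes. The filter on low values asked for a mean of at least 0.1 FPKM over all libraries. Fbn2 and Mfap2 passed it only through the TAA group, so these 2 had to differ; the other 7 also passed on the control and recovery libraries alone.

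**Figure D1:**
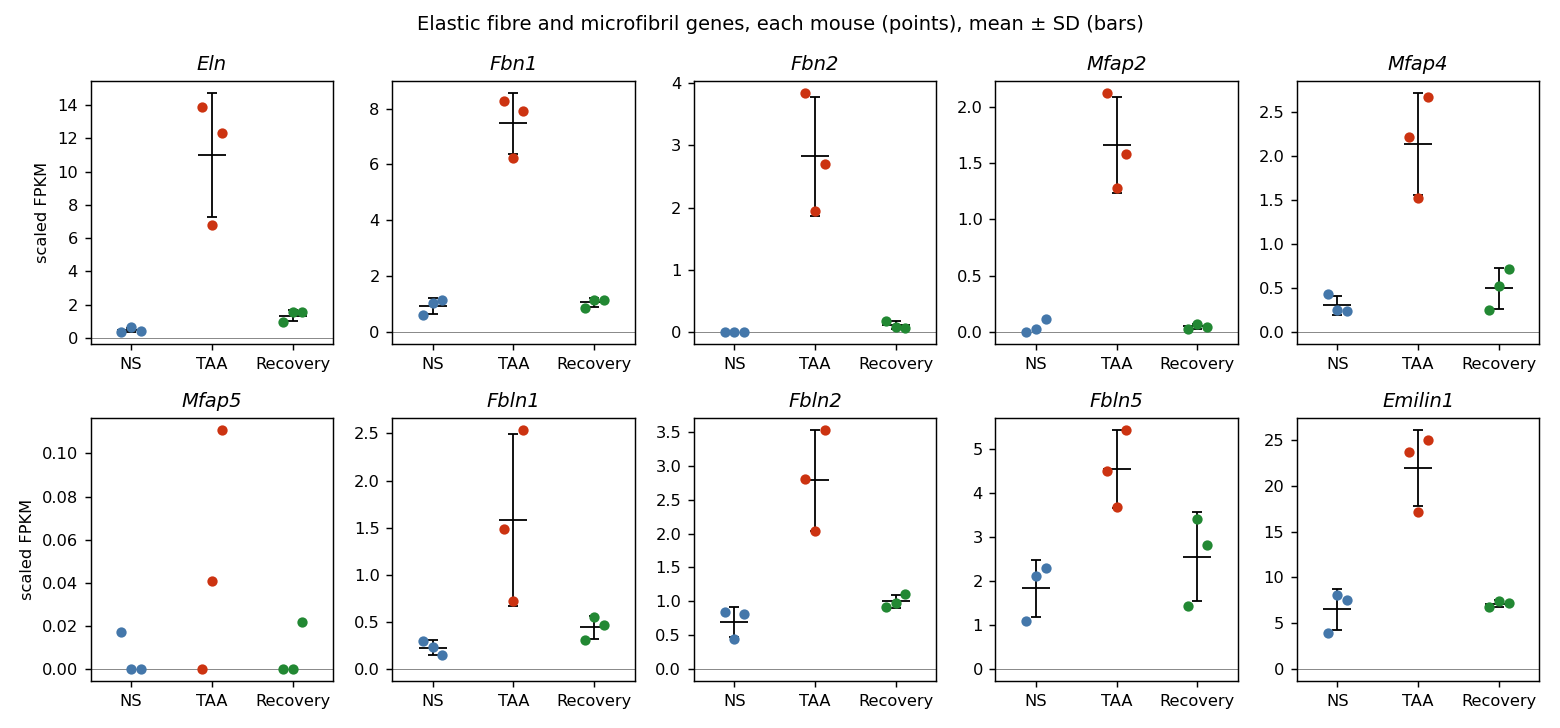
Scaled FPKM (y axis, from 0, a separate scale for each gene) of the 10 elastic fibre and microfibril genes in the control (NS), TAA and recovery groups. Points are mice, and bars are the mean ± SD over 3 mice, drawn where no mouse was listed at 0; in every gene but Mfap5 the 3 TAA mice lie above all control and recovery mice.

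RefSeq promoter windows of 6 of the 10 members were used, 9 windows in all. Shown are the 4 with at most 10 bases of annotated exon, which were left out. In TAA the log2 fold changes of their 3 genes were 3.60 for Mfap2, 2.23 for Fbln1 and 1.31 for Fbln5. The distance between these genes depended on the pseudocount. With 1 the values were 1.33, 1.01 and 0.98, and with 0.01 they were 5.45, 2.62 and 1.36. The sequences are from RefSeq on GRCm38.p6, which is the same build as the mm10 of the deposited table. Each is the stretch of up to 250 bases before a transcription start, read 5′ to 3′ along the gene, and 6 exonic bases were left out of the Mfap2 window and 1 of the second Fbln5 window. Capitals mark the letters CAGAC, the core SMAD motif, and CATTCC, the TEAD motif, on either strand.
Mfap2 (chr4:141010174-141010417, plus strand): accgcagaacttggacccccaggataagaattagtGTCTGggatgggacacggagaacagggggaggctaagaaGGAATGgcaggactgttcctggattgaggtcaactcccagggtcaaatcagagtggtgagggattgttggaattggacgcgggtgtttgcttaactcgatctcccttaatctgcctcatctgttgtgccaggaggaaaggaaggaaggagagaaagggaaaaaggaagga
Fbln1 (chr15:85205699-85205948, plus strand): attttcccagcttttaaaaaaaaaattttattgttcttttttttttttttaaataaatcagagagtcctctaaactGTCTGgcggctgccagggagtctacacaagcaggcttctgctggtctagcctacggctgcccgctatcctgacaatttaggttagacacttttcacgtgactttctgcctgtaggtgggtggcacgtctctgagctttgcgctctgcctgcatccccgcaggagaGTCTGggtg
Fbln5 (chr12:101819120-101819369, minus strand): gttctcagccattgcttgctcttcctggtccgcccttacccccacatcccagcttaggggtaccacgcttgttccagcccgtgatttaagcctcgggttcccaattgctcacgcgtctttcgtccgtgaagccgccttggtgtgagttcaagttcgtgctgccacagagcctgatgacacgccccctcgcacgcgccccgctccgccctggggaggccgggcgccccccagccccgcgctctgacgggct
Fbln5, start inside the gene (chr12:101818485-101818733, minus strand): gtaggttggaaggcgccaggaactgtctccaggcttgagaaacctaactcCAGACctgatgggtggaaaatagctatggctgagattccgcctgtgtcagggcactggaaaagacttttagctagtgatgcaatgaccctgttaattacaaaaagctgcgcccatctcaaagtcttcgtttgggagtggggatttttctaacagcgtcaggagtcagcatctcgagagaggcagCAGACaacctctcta
The Mfap2 stretch held 1 CAGAC match, starting 215 bases before the start, and 1 CATTCC match at 176 bases before it. The Fbln1 stretch held 2 CAGAC matches, 174 and 9 bases before the start. For Fbln5 the stretch before the outer start held neither motif, and that before the inner start held 2 CAGAC matches, 199 and 15 bases before it. No window of the 6 members used here held TATAAA, the TATA box, or TGANTCA, the AP-1 motif. Over all 32851 windows of 250 bases, CAGAC was found in 42.2%, CATTCC in 12.6%, TATAAA in 12.4% and TGANTCA in 6.75%, counted on both strands. The CAGAC and CATTCC matches did not overlap each other. GC content was 51.2% for the Mfap2 stretch, 46.4% for Fbln1 and 65.2% and 49.4% for the outer and inner Fbln5 stretches, and the median of all windows was 52.4%. A match describes the letters of the window and is no evidence of binding.

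Eln encodes tropoelastin, the soluble precursor of the elastin core, and lies at chr5:134702593-134747323 on the minus strand. The 3 control mice held 0.390, 0.639 and 0.422 scaled FPKM. The 3 TAA mice held 13.9, 6.78 and 12.3, and the 3 recovery mice 0.966, 1.54 and 1.54. The groups were separate at each step, with TAA highest, recovery between and control lowest, and TAA mouse 2 was the lowest of its group. The log2 fold change was 4.21 (SE 0.29, 95% interval 3.53 to 4.89) between TAA and control mice, an 18.5-fold difference with an adjusted p of 3.02e-05 from limma. Between recovery and TAA mice it was -2.90 (SE 0.29, adjusted p of 1.55e-04 from limma). The recovery group stayed above the control group by 1.31 (95% interval 0.70 to 1.92), with a p of 0.00162 before and 0.0523 after adjustment by limma, so Eln just missed the DEG call.

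Fbn1 encodes the fibrillin that makes up most microfibrils of adult tissue, and lies at chr2:125300594-125507993 on the minus strand. Its levels were 0.627, 1.04 and 1.15 scaled FPKM in the control mice, 8.26, 6.23 and 7.92 in the TAA mice and 0.879, 1.17 and 1.17 in the recovery mice. The TAA mice stood apart, and the recovery and control mice overlapped. The log2 fold change was 2.89 (SE 0.23) for TAA against control, and -2.69 (SE 0.17) for recovery against TAA. Recovery and control differed by 0.20 (95% interval -0.39 to 0.80), and this difference was not called.

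Fbn2 encodes the fibrillin best known from developing tissue. The control mice held 0.00784, 0.00597 and 0 scaled FPKM, which is an estimated 2, 2 and 0 fragments. The TAA mice held 3.84, 1.94 and 2.70, an estimated 2657, 1305 and 1898 fragments, and the recovery mice held 0.188, 0.0857 and 0.0733, an estimated 77, 41 and 35. The gene was thus close to undetected in the control liver, well above it in every TAA mouse, and low but above every control mouse in recovery. The fitted log2 fold change of 4.75 (SE 0.26) for TAA against control depends on the pseudocount, since the control level is near 0: it was 7.59 with a pseudocount of 0.01 and 1.90 with 1, and Fbn2 was a DEG in each. Recovery against TAA gave -3.75 (SE 0.30). Recovery against control gave 1.01 (95% interval 0.45 to 1.56, adjusted p of 0.0737 from limma), which missed the call. At the pseudocount of 0.01 it was 3.04 with an adjusted p of 0.0374 from limma, which passed the call. At the pseudocount of 1 it was 0.15 with an adjusted p of 0.142 from limma, which missed it.

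Mfap2 and Mfap5 encode a pair of related small glycoproteins that bind fibrillin along the microfibril. Mfap2 lies at chr4:141010418-141015984 and Mfap5 at chr6:122505845-122529290, both on the plus strand. Mfap2 was listed at 0, 0.0303 and 0.121 scaled FPKM in the control mice, 2.12, 1.28 and 1.58 in the TAA mice and 0.0299, 0.0759 and 0.0509 in the recovery mice. Here too the TAA mice stood apart, while recovery and control mice overlapped at an estimated 0 to 4 fragments. The log2 fold changes of Mfap2 were 3.60 (SE 0.33) and then -3.52 (SE 0.24), and its recovery and control groups differed by 0.09 (95% interval -0.67 to 0.85). The change of Mfap2 in TAA was 5.45 with a pseudocount of 0.01 and 1.33 with 1, and Mfap2 was a DEG in each. Mfap5 was at most 0.111 scaled FPKM, in TAA mouse 3, the library with skeletal muscle transcripts. It was 0.0409 in TAA mouse 2, 0.0219 in recovery mouse 3, 0.0171 in control mouse 1 and was listed at 0 in the other 5 libraries. Without the filter its log2 fold change in TAA was 0.45 (SE 0.27), with an adjusted p of 0.235 from limma, so a change in Mfap5 was not detectable at this depth.

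Mfap4 encodes a microfibril-associated glycoprotein that binds both elastin and fibrillin, and lies at chr11:61485431-61488900 on the plus strand. It held 0.433, 0.252 and 0.240 scaled FPKM in control mice, 2.21, 1.52 and 2.67 in TAA mice, and 0.248, 0.523 and 0.717 in recovery mice. Recovery mouse 1 lay in the control range, and the other recovery mice lay above it and below every TAA mouse. The log2 fold changes were 2.45 (SE 0.27) for TAA against control and -1.96 (SE 0.34) for recovery against TAA. Recovery and control differed by 0.49 (95% interval -0.36 to 1.34).

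The fibulins are calcium-binding glycoproteins of the fibre surface. Fbln5, whose product binds tropoelastin and helps to lay it on the microfibrils, lies at chr12:101746565-101819055 on the minus strand. Its levels were 1.09, 2.11 and 2.31 scaled FPKM in control mice, 4.52, 3.68 and 5.45 in TAA mice and 1.43, 3.41 and 2.82 in recovery mice. It made the smallest rise of the 9 tested members, and its recovery mice spread from the control range nearly to the lowest TAA mouse. The log2 fold change was 1.31 (SE 0.28) in TAA, with an adjusted p of 0.00583 from limma. In recovery against TAA it was -0.88 (SE 0.30), with an adjusted p of 0.0426 from limma, a 1.84-fold difference that did not reach the fold threshold, so Fbln5 was the 1 tested member that was not a DEG there.

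Without control mouse 1, the lowest control for Fbln5, the TAA change of Fbln5 was 0.99 and no longer reached 2-fold. Without recovery mouse 2 the recovery change of Fbln5 was -1.12 and was called a DEG. With FPKM as deposited or scaled to a common sum this change was -1.42 or -1.62, and it was also called.

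Fbln1, at chr15:85205949-85286535 on the plus strand, encodes a fibulin found in elastic fibres and basement membranes. It held 0.300, 0.233 and 0.149 scaled FPKM in control mice, 1.49, 0.718 and 2.54 in TAA mice and 0.307, 0.554 and 0.463 in recovery mice. The recovery mice lay between the other groups without overlap, and the TAA mice ranged from 0.718 to 2.54. The log2 fold changes were 2.23 (SE 0.42), then -1.51 (SE 0.41), and 0.73 (95% interval 0.09 to 1.36, adjusted p of 0.170 from limma) for recovery against control. Without recovery mouse 1 the fall of Fbln1 had an adjusted p of 0.0527 from limma and was not called. The call was also lost with quantile normalization (-0.97, adjusted p of 0.109 from limma), with a pseudocount of 1 (-0.78) and when tested against a 2-fold change.

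Fbln2, at chr6:91212455-91272540 on the plus strand, encodes a fibulin of vessel walls. Its levels were 0.842, 0.446 and 0.809 scaled FPKM, then 2.80, 2.04 and 3.53, and then 0.917, 0.975 and 1.11 in the control, TAA and recovery mice. As for Fbln1, the recovery mice sat just above every control mouse. The log2 fold changes were 1.86 (SE 0.28) and -1.36 (SE 0.21), and recovery differed from control by 0.50 (95% interval -0.09 to 1.09).

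Emilin1 encodes a glycoprotein of the boundary between elastin and microfibrils, and lies at chr5:30913402-30921277 on the plus strand. It was the most abundant of the 10 genes per length in every group. The levels were 3.92, 8.09 and 7.49 scaled FPKM in control mice, 23.7, 17.2 and 25.0 in TAA mice and 6.76, 7.42 and 7.26 in recovery mice. TAA mice stood apart and the recovery mice lay inside the control range. The log2 fold change was 1.79 (SE 0.28) and then -1.59 (SE 0.15), with a difference of 0.20 (95% interval -0.44 to 0.84) between recovery and control.

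**Figure D2:**
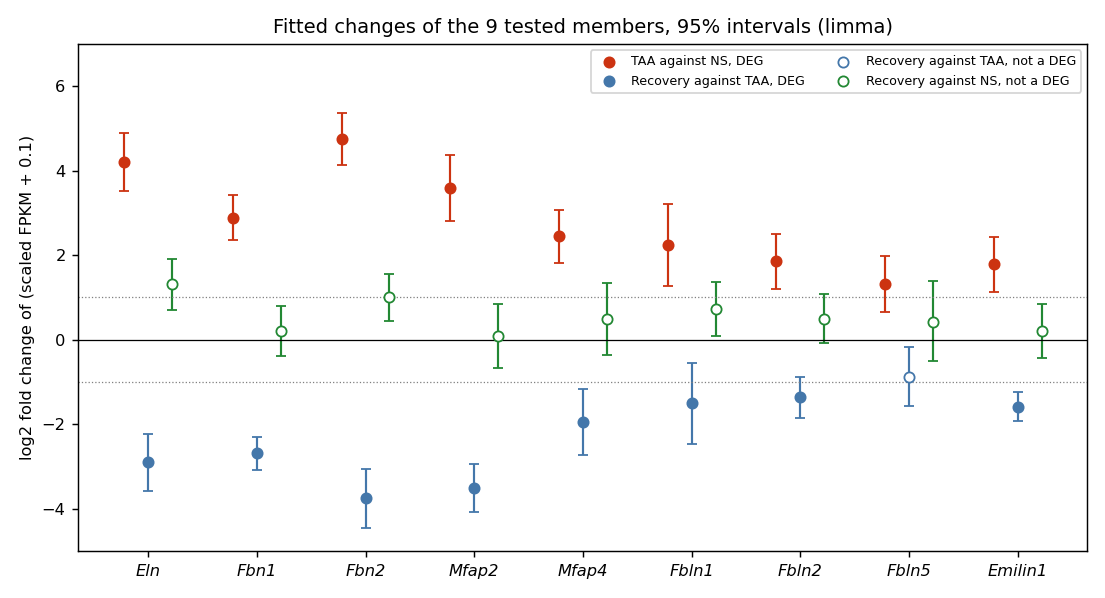
Log2 fold change of (scaled FPKM + 0.1) with its 95% interval (limma) for the 9 tested members in 3 comparisons; filled points are DEGs, open points are not, and dotted lines mark a 2-fold change. The TAA changes run from 1.31 to 4.75, the recovery-against-TAA changes from -0.88 to -3.75, and the recovery-against-control differences from 0.09 to 1.31.

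In recovery against TAA, 8 of the 9 tested members were DEGs that fell, against 14.3% of tested genes. The median was -1.96, against -0.01 over all tested genes. Fbn2 and Mfap2, which passed the filter only through the TAA group, had to differ here too. Of the other 7 members 6 were DEGs that fell. No member was a DEG that rose, a class with 7.12% of tested genes, and every tested member had its highest recovery mouse below its lowest TAA mouse, as did 31.0% of tested genes. This comparison uses the same TAA libraries as the one above, so it is not a second measurement of the TAA level.

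In recovery against control, limma called 0 of the 9 tested members DEGs, and called 0.582% of tested genes higher and 0.412% lower. At an unadjusted p under 0.05 there were 3 of 9 members, Eln, Fbn2 and Fbln1, and 23.0% of all tested genes. The recovery mice lay above all control mice in 4 members, Eln, Fbn2, Fbln1 and Fbln2, and 14.6% of tested genes showed that order. All 9 differences were above 0, with a median of 0.49 against 0.01 over all tested genes. For Fbn1, Mfap2 and Emilin1 the sign changed when control mouse 1 was left out, to -0.04, -0.17 and -0.12. Eln was a DEG in recovery against control in 5 of the alternative fits, among them the fit of all 9 libraries together (adjusted p of 0.0339 from limma).

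The part of the TAA change that was still present in the recovery group was computed on the log2 scale, as the recovery-minus-control difference in percent of the TAA-minus-control difference. It was highest for Fbln5 (33.1%), Fbln1 (32.5%) and Eln (31.1%), and lowest for Mfap2 (2.41%), Fbn1 (7.01%) and Emilin1 (11.3%). Fbln2 kept 26.9%, Fbn2 21.2% and Mfap4 20.0%. The median of the 9 members was 21.2%, and that of all 2389 genes higher in the TAA group was 17.2%, with quartiles of 4.17% and 30.3%. The values for Fbln5 and Mfap4 rested on mice that differed widely, at -21.1%, 70.3% and 50.0% for Fbln5 and -8.13%, 26.1% and 42.2% for Mfap4. Mfap4 was at 34.1% without recovery mouse 1 and 8.98% without recovery mouse 3. The 3 recovery mice were closer together for Eln, at 21.2%, 36.0% and 36.1%, and for Fbn1, at -1.63%, 11.3% and 11.4%. The low genes depended on the pseudocount. For Fbn2 the value was 40.0% with a pseudocount of 0.01 and 7.88% with 1. For Mfap2 it was 12.1% and 0.301%, so that with 0.01 Mfap2 was above Fbn1 (7.46%) and Emilin1 (11.4%).

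**Figure D3:**
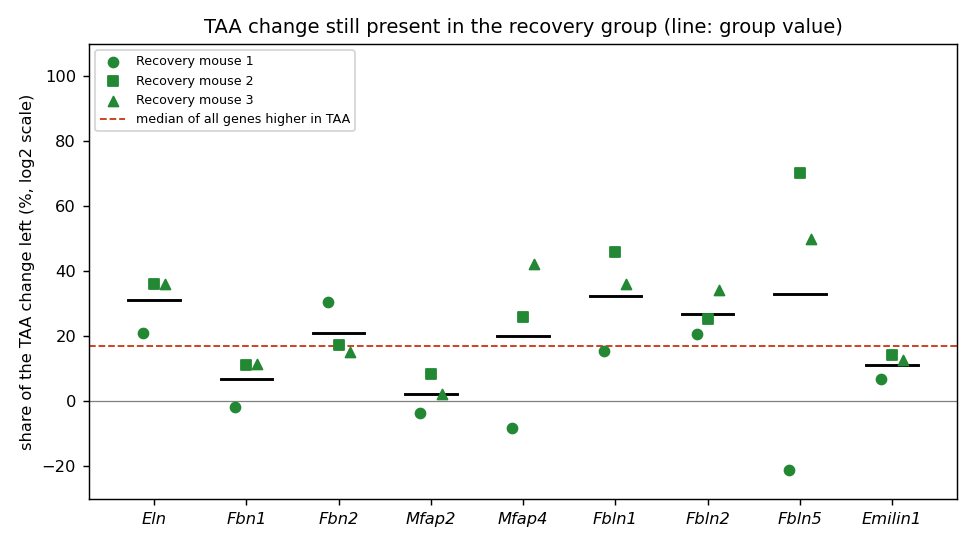
Part of the TAA change still present in recovery mice (percent, y axis) for the 9 tested members. Symbols are the 3 recovery mice, black lines the group value, and the dashed line the median of 17.2% over all genes higher in TAA; recovery mouse 1 is lowest for 8 of the 9 members and highest for Fbn2.

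Ratios between members within a library do not depend on the scaling between libraries. Fbn2 made up 1.24%, 0.571% and 0% of the fibrillin FPKM, the sum of Fbn1 and Fbn2, in control mice. In TAA mice it made up 31.8%, 23.7% and 25.4%, and in recovery mice 17.6%, 6.83% and 5.90%. The groups did not overlap in any pair: the Fbn2 share was highest in TAA mice, lowest in control mice and between these in every recovery mouse. Each of the 3 pairs gave an exact permutation p of 0.1 (two-sided), the smallest that 3 against 3 mice allow, and 0.15 after adjustment over 12 ratio tests. Fbn2 passed the filter on low values only through the TAA group. A higher Fbn2 level there was thus fixed in advance, and the pairs with TAA are given as a description.

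The log2 ratio of Eln to Fbn1 was -0.69, -0.70 and -1.45 in control mice, 0.75, 0.12 and 0.63 in TAA mice and 0.14, 0.40 and 0.40 in recovery mice. Eln was thus below Fbn1 per length in every control mouse, and above Fbn1 in every TAA and every recovery mouse. Fbn2 is not part of this ratio. The mean ratio differed by 1.45 between TAA and control and by 1.26 between recovery and control, each with an exact permutation p of 0.1 and an adjusted p of 0.15. Between recovery and TAA it differed by -0.19 (exact permutation p of 0.5, adjusted p of 0.6).

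The log2 ratio of Mfap4 to Fbn1, with 0.1 added to both, averaged -1.30 ± 0.76 in control mice, -1.80 ± 0.23 in TAA mice and -1.03 ± 0.42 in recovery mice (SD, n = 3). The recovery mice were all above the TAA mice, by 0.76 on average, with an exact permutation p of 0.1, and the control mice overlapped both groups. The log2 ratio of Mfap5 to Mfap2, with the same addition, was -0.40 ± 0.62 in control mice, -3.85 ± 0.87 in TAA mice and -0.46 ± 0.25 in recovery mice (SD, n = 3), with an exact permutation p of 0.1 for TAA against control. Since Mfap5 is near 0 in every library, this ratio mostly follows Mfap2. Mfap2 also passed the filter only through the TAA group, so the Mfap5 to Mfap2 values of TAA mice are given as a description.

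**Figure D4:**
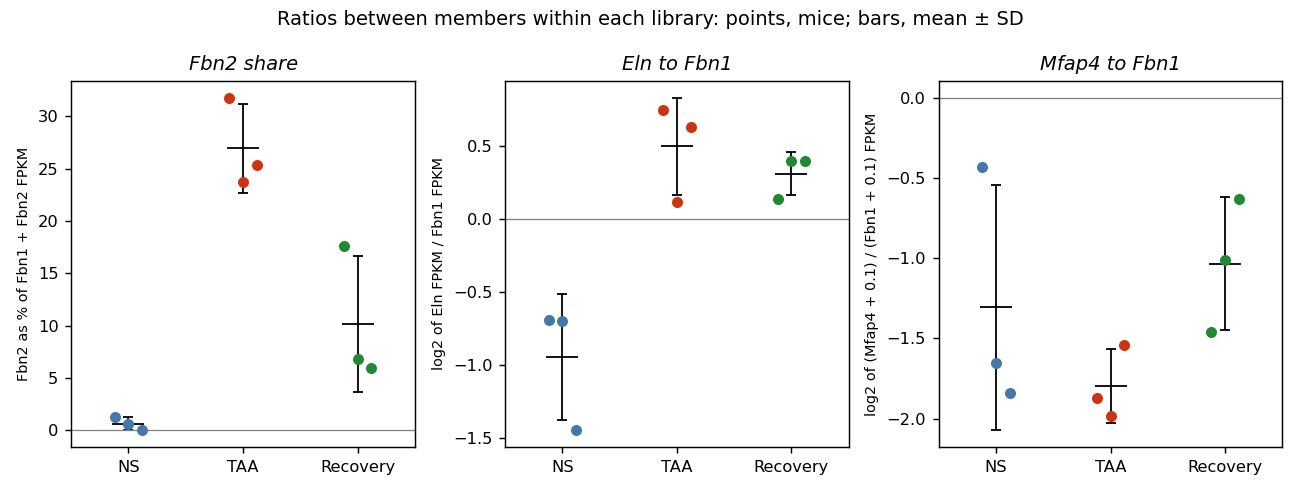
Within-library ratios in control (NS), TAA and recovery mice: Fbn2 as percent of Fbn1 plus Fbn2 FPKM, and the log2 ratios of Eln to Fbn1 and of Mfap4 to Fbn1. Points are mice and bars the mean ± SD over 3; the Fbn2 share is 0 to 1.24% in control, 23.7 to 31.8% in TAA and 5.90 to 17.6% in recovery mice.

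The order of the members by mean scaled FPKM differed between groups. In the control liver it ran Emilin1 (6.50), Fbln5 (1.84), Fbn1 (0.939), Fbln2 (0.699), Eln (0.484), Mfap4 (0.309), Fbln1 (0.227), Mfap2 (0.0504), Mfap5 (0.00570) and Fbn2 (0.00460). Only Emilin1 and Fbln1 were separate from the next gene below, and the other neighbours overlapped between mice. In the TAA group Eln moved up to rank 2 (11.0) and Fbn2 to rank 5 (2.83), where each overlapped a neighbour. In the recovery group Eln was at rank 3 (1.35) and Fbn2 at rank 8 (0.116).

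Within a group, the same mouse was often the lowest for several members. TAA mouse 2 was the lowest TAA mouse for 9 of the 9 tested members, and recovery mouse 1 was the lowest recovery mouse for 8 of 9. TAA mouse 2 was also the lowest for 5 of 6 stellate cell, 5 of 6 myofibroblast, 5 of 7 portal fibroblast, 5 of 6 vascular smooth muscle, 6 of 6 mesothelial, 5 of 5 endothelial, 4 of 5 cholangiocyte and 3 of 5 macrophage markers, and for 1 of 6 hepatocyte markers. Recovery mouse 1 was lowest for 5 of 6 myofibroblast, 5 of 7 portal fibroblast, 6 of 6 vascular smooth muscle, 5 of 6 mesothelial, 5 of 5 cholangiocyte, 4 of 5 endothelial, 3 of 5 macrophage, 3 of 6 stellate cell and 2 of 6 hepatocyte markers. The part of these markers in the spread of the members was not tested.

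Of the 6 myofibroblast markers (Acta2, Tagln, Col1a1, Col3a1, Timp1, Postn), 5 were DEGs higher in TAA, and their summed level was 9.85 to 15.4 scaled FPKM in control, 151 to 208 in TAA and 8.20 to 16.3 in recovery mice. Of the 7 portal fibroblast markers 6 rose, with sums of 4.13 to 4.44, 14.9 to 24.7 and 5.08 to 8.60. Thy1 and Cd34, the first markers of that list, were above 0 in every library. Of the 6 vascular smooth muscle markers 1 rose, with sums of 1.63 to 3.73, 3.79 to 6.67 and 1.69 to 3.35, and the defining marker Cnn1 was listed at 0 in 1 control and 1 recovery mouse. Of the 6 stellate cell markers 3 rose, with sums of 35.0 to 50.5, 72.4 to 77.2 and 39.8 to 45.1. Of the 5 cholangiocyte markers 5 rose, with sums of 15.7 to 20.9, 295 to 442 and 27.9 to 38.4. Mesothelial markers (2 of 6 rose), macrophage markers (2 of 5) and endothelial markers (0 of 5) are given for comparison, and 4 of 6 hepatocyte markers fell. Over all tested genes 17.0% were DEGs higher in TAA and 8.02% lower. The myofibroblast marker Timp1 and the portal fibroblast markers Pi16 and Slit2 passed the filter only through the TAA group. These markers had to be higher there. The part of each marker list in the changes of the members was not tested.

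Without TAA mouse 3, the library with muscle transcripts, 9 of 9 tested members were still DEGs in TAA against control. Of all 14094 tested genes 2252 were then DEGs higher in TAA. In recovery against TAA 8 of 9 members were then DEGs that fell, and 1917 of all tested genes. Without recovery mouse 3, 8 of 9 members were DEGs that fell, and 2102 of all tested genes. These counts include Fbn2 and Mfap2, which passed the filter only through the TAA group.

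Beyond the members, a list of 31 other genes of elastic fibres was in the table, and 28 of them passed the filter. Adamtsl3 and Adamtsl5 passed it only through the TAA group, so these had to differ from that group. Adamtsl5 is counted among the DEGs of TAA against control and of recovery against TAA. In TAA against control 18 were DEGs that rose and 1 fell, with a median log2 fold change of 1.32. Over all tested genes 17.0% were DEGs that rose and 8.02% fell, with a median of 0.02. In recovery against TAA 16 were DEGs that fell and 1 rose, with a median of -1.30. Over all tested genes 14.3% fell and 7.12% rose as DEGs, with a median of -0.01. In recovery against control 1 was a DEG, with a median of 0.35. Over all tested genes 0.582% were DEGs higher and 0.412% lower there, with a median of 0.01.

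Of the 5 lysyl oxidases, which cross-link elastin and collagen, 4 rose as DEGs in TAA. The changes in TAA were 3.66 for Lox, 3.08 for Loxl1, 3.17 for Loxl2 and 1.25 for Loxl3. Loxl4 differed by 0.85 (adjusted p of 0.0110 from limma), under the fold threshold. In recovery Lox, Loxl1 and Loxl2 fell by 2.91, 2.48 and 2.75 on the log2 scale, and the change of Loxl3 was -0.93, under the fold threshold. The levels of Loxl4 were 0.348, 0.376 and 0.573 scaled FPKM in control mice, 0.811, 0.807 and 0.907 in TAA mice and 0.684, 1.27 and 1.55 in recovery mice. It was 1.21 above control in recovery (95% interval 0.44 to 1.98, adjusted p of 0.0965 from limma).

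Among the genes of microfibril assembly, 3 of the 4 genes named as latent TGF-β binding proteins were DEGs in TAA against control. Ltbp2 rose by 4.51 from control levels of 0.188, 0.157 and 0.103 scaled FPKM to 7.23, 3.33 and 7.02 in TAA mice, and Ltbp1 and Ltbp3 rose by 1.92 and 2.06. Ltbp4, the most abundant of them in the control liver, had a change of 0.31 (95% interval -0.29 to 0.92) and was not called. Efemp2, needed for elastin assembly, rose by 2.54. The related Efemp1 had a change of 0.38 (95% interval -0.34 to 1.09) and was not called, and the difference between the genes was not tested. Vtn, a plasma protein made by hepatocytes that is also found on elastic fibres, was the 1 gene of the list that fell, from 853, 992 and 965 scaled FPKM to 508, 395 and 442, and it was 1026, 884 and 880 in recovery mice.

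All 6 tested genes of elastin degradation rose. Mmp7 had a change of 7.17, from 0.0233, 0.0427 and 0.254 scaled FPKM in control mice to 31.9, 25.4 and 22.8 in TAA mice, and was 1.24, 3.33 and 2.54 in recovery mice. It was the 1 DEG of the list in recovery against control, by 3.64 (adjusted p of 0.0249 from limma), and the call was lost without control mouse 1 or 2, without recovery mouse 2 or 3, with the replicate block, without the filter and when tested against a 2-fold change. Mmp12, the macrophage elastase, held 0.460, 0.0621 and 0.0916 scaled FPKM in control, 3.65, 4.70 and 4.04 in TAA and 0.195, 0.440 and 0.553 in recovery mice, a rise of 4.02 and then a fall of 3.16 on the log2 scale. Its recovery mice overlapped the control mice.

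**Figure D5:**
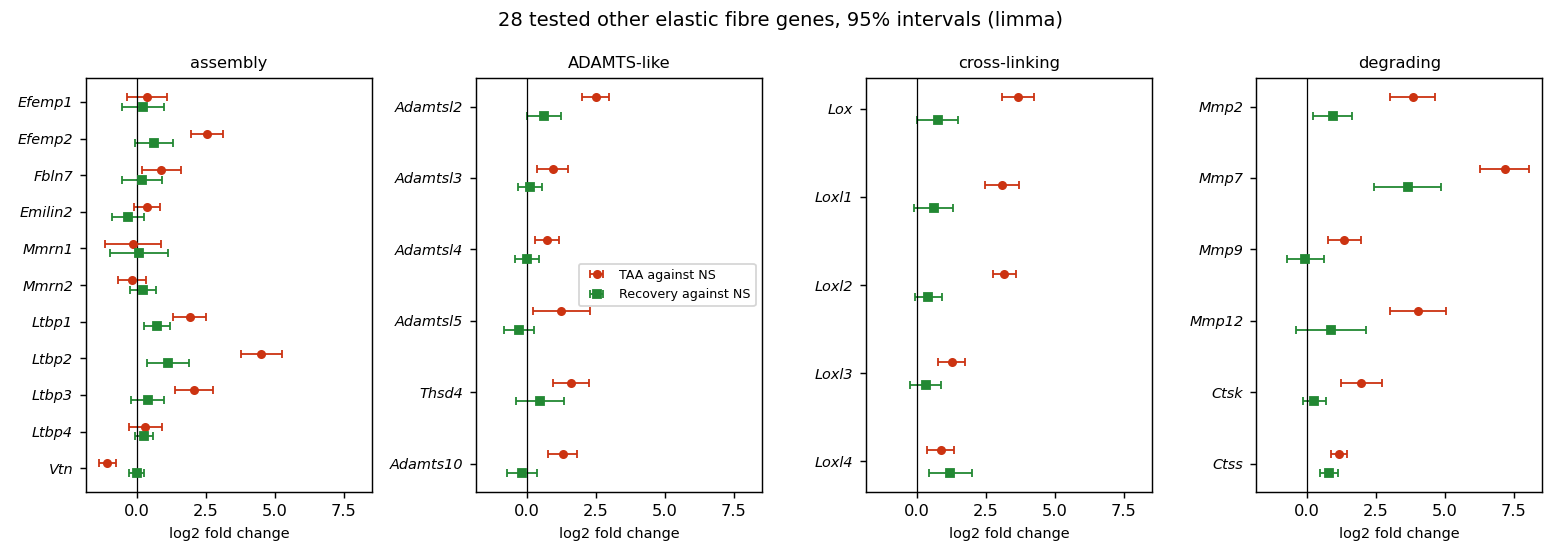
Log2 fold change of (scaled FPKM + 0.1) with 95% intervals (limma) of the 28 tested other elastic fibre genes, in 4 classes, for TAA against control (circles) and recovery against control (squares). In TAA 18 genes rose and Vtn fell as DEGs, and in recovery against control Mmp7 is the 1 DEG.

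Among 14057 tested genes outside the members and the other elastic fibre list, those whose pattern over the 9 libraries was most like the mean of the 9 tested members were Ehd2, Slc25a4, Ccdc80, Lynx1, Adamts2, Ajap1, Bambi, Col1a2, Tspan3 and Csrp1. Their Pearson r with that mean ran from 0.993 to 0.999, on log2(scaled FPKM + 0.1). This is a description over libraries that share groups, and 121 of these genes had an r over 0.98. Each single member had an r of 0.847 (Fbln5) to 0.985 (Eln) with the mean of the others.

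Some member genes overlap a gene on the opposite strand in the GENCODE M21 annotation, and the sources used here do not state that strand was used in counting. The overlap covers 2442 exonic bases of Fbn1 (Gm9913), 267 of Eln (Gm30003), 129 of Fbn2 (Gm26507) and 89 of Mfap4 (Mapk7). Whether reads there were assigned to one strand is not known. Gm9913, Gm30003 and Gm26507 were not listed under these names in the deposited values, so their levels cannot be given. Mapk7 was 0.269 to 0.600 scaled FPKM in control and 1.01 to 1.24 in TAA mice.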

How the data were processed

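Liver mRNA of 9 mice was analysed. The authors aligned 150 bp paired-end reads to mm10 with HISAT2 2.2.1, counted them with featureCounts 1.5.0-p3 and deposited FPKM values, which are not counts, so the count test of the study could not be run. FPKM was divided by median-of-ratios factors (0.827 to 0.878 NS, 1.29 to 1.38 TAA, 0.893 to 0.907 recovery) over 14005 genes above 0 in all libraries. Genes with a mean of at least 0.1 FPKM (14094) were fitted as log2(scaled FPKM + 0.1) for 6 libraries a comparison with limma 3.58.1 (R 4.3.3, eBayes with trend) and Benjamini-Hochberg adjustment over all of them. On this scale the change of low genes is understated. The script was tested on simulated data. Ratios were compared by exact permutation tests (scipy 1.17.1). Depth was estimated from the spacing of low FPKM values. At that depth 52.5% to 60.5% of low values were within 0.08 of a whole fragment, against 16% by chance, so fragments are estimates. Strand use and annotation release were not given in the sources used here, and 92.8% of loci matched GENCODE M21.

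Members and lists were chosen with earlier results of these data known. Named were all members and, of the other list, the lysyl oxidases, the latent TGF-β binding proteins, Efemp1, Efemp2, Mmp12, the 3 DEGs that rose most, the DEGs that fell, and the 10 nearest patterns. Marker lists served as values beside results. Alternatives were the pseudocount, filter, scaling, variance model, replicate block and leaving out each mouse. Columns of the authors' annotation were used only for names and loci.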

Additional observations from a re-analysis of the deposited data

How the results depend on the processing

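Every member kept its direction in TAA against control and in recovery against TAA under all alternatives run. Of 160 member values per comparison, 154 kept their call in TAA against control and 6 lost it. In recovery against TAA 150 kept theirs, 7 lost it and 3 gained it, and in recovery against control 149 did, 6 gained a call and 5 changed sign. Without single mice the difference there ranged from -0.04 to 0.36 for Fbn1, -0.17 to 0.40 for Mfap2 and -0.12 to 0.39 for Emilin1, the lowest value in each case without control mouse 1. Mfap2 also changed sign with quantile normalization (-0.06) or without recovery mouse 2 (-0.02). Testing against a 2-fold change (treat) left 5 of 9 members and 11 of 28 other genes called in TAA against control, 5 and 9 in recovery against TAA, and 0 other genes in recovery against control. A pseudocount of 1 left 10 other genes that fell. In recovery against control 1 member was called in place of 0 with a pseudocount of 0.01 (Fbn2), a minimum of 1 FPKM over 7 members, FPKM as deposited, a common sum, 1 fit of all libraries or robust variances (Eln in these 5). Mmp7 lost its call without the filter and with the replicate block (0 of 31 and 0 of 28 other genes called), and 2 were called in 1 fit of all libraries. Leaving out single mice gave 0 to 1 other genes there, the call being lost without control mouse 1 or 2 or recovery mouse 2 or 3. The ratio of Mfap5 to Mfap2 in recovery against control ranged from -0.39 to 0.23 without single mice and turned positive without control mouse 1 (0.23) or recovery mouse 2 (0.08). The median share left was 14.8% to 28.1% under other pseudocounts and scalings. A ratio of Mfap5 without a pseudocount could not be formed, because of zeros. The cause of these shifts was not tested.

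Counts over all genes moved more. Genes higher in TAA numbered 2389, and 890 with a pseudocount of 1, 1176 at a minimum of 1 FPKM, 4382 as deposited, 5475 at a common sum, 1534 with quantile normalization and 941 with treat. DEGs were 67.9% higher in TAA, but 50.0%, 53.4%, 91.2%, 94.3% and 53.1% in the first 5 of these, and the median of all genes was 0.63 with FPKM as deposited and 0.81 at a common sum, against 0.02. Relative to that median the members' median was 2.38 and 2.37, against 2.43. Genes lower in recovery than in TAA numbered 2014, and 711, 975, 3728, 4854 and 683 with a pseudocount of 1, the minimum, as deposited, a common sum and treat. Of DEGs 33.2% were higher in recovery, and 51.3%, 48.5%, 9.89%, 5.91% with the first 4 of these and 46.5% with quantile normalization. Recovery against control had 140 DEGs, 80 with a pseudocount of 1, 48 without the filter, 235 in 1 fit, 85 without the variance trend, 0 with treat, 17 with the replicate block, and 51, 36, 32 and 39 without control mouse 2 or 3 or recovery mouse 2 or 3. DEGs there were 58.6% higher, and 69.3% as deposited and at a common sum, 50.0% with a pseudocount of 1, 46.9% without recovery mouse 2 and 38.5% without recovery mouse 3. Over all tested genes, same-numbered mice did not deviate together from their group means (r of -0.07 to 0.12). Whether they share more than a number was not tested. With the replicate block 2383 genes were higher in TAA and 2019 lower in recovery than TAA, and no member lost or gained a call.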
